A study of Mus musculus with 6 samples.

Results

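Heat shock and endoplasmic reticulum chaperone genes were followed in cultured mouse cells: 43 genes of 15528 listed, chosen by symbol. All 43 symbols were present in the deposited count matrix. They comprise 19 genes of the cytosolic heat shock system, 3 mitochondrial chaperones and 21 genes of folding and quality control in the endoplasmic reticulum (ER). Molecular chaperones bind unfolded proteins and use ATP, or the help of cochaperones, to let them fold. When unfolded proteins build up in the cytosol, the transcription factor HSF1 switches on chaperone genes, and in the ER the sensors ATF6, IRE1 (gene Ern1) and PERK start the unfolded protein response, in which the factor XBP1 and ATF6 itself raise chaperone and degradation genes. Endothelial cells make much secreted and surface protein, and heme and free iron from broken red cells are known to oxidise proteins.

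The cells are labelled as lymphatic endothelial cells, with no strain, genotype, source, dose or number of added cells given in the sources used here. The control group and the group treated with red blood cells hold 3 libraries each, with the same cell label and a time of 24 h. The series belongs to mouse work on subarachnoid bleeding and the neck lymph nodes, and the comparison asks how transcripts differ once red blood cells are present. Separate cultures are not stated, so the p-values rest on a spread that may be technical.

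Total counts ran from 17263359 to 18381419 per library. The labelled identity is weakly marked: of 16 lymphatic markers 10 are listed and 4 could be tested, and for pan-endothelial markers these numbers were 16, 10 and 3, while Prox1 and Lyve1 are not listed, and Kdr, Fli1 and Itga9 had 0 counts in the controls. The listed lymphatic markers summed to 399.9 to 503 CPM (counts scaled to a common library total) in the controls and 562.6 to 594.5 CPM with red blood cells, and the pan-endothelial ones to 111 to 123 and 116 to 119 CPM. The lymphatic sum was mostly Nrp2 and Nr2f2. The pan-endothelial sum was mostly Eng, with means of 99.28 CPM without and 98.96 CPM with red blood cells. Control means were 0.134 CPM for Cdh5, 0.112 for Pdpn, 0.1496 for Vwf and 0.0368 for Sox18. Pecam1 and Egfl7 were higher, with 260, 309 and 233 and 70, 75 and 75 counts in control replicates 1 to 3. Of the 4 tested lymphatic markers 1 was called higher, against 1.16% of all tested genes. Mean CPM without and with red blood cells was 272 and 361 for Nrp2 and 30.9 and 63.5 for Stab1. Nr2f2 went the other way, at 161 and 146 CPM, and Flt4 had 3.62 and 3.52 CPM. Control replicate 2 was the lowest control for Nrp2 and Stab1. Counts in control replicates 1 to 3 were 5195, 3885 and 5418 for Nrp2 and 625, 452 and 567 for Stab1. Erythroid transcripts were higher with red blood cells, 5 of 6 tested markers being called. The 12 markers summed to 40.3 to 45.2 CPM without and 579.8 to 666 CPM with red blood cells. The control sum was mostly Bpgm, with means of 39.0 CPM without and 42.1 CPM with red blood cells. Hbb-bs had means of 1.52 and 331 CPM, and Alas2 0.167 and 31.8 CPM. Of the leukocyte markers 4 of 6 tested were called higher. Ptprc, Adgre1 and Cd74 had 0 counts in every control and 11 to 27 counts in each treated library, while the summed level of the 13 listed, 42.4 to 49.0 against 50.9 to 55.4 CPM, was mostly Csf1r and Cd68. Epithelial and mesothelial markers summed to 658 to 738 CPM in the controls against 614 to 636 CPM with red blood cells. Of 4 tested, 0 were called. Krt8 had 448 ± 34.3 CPM without and 389.6 ± 6.65 CPM with red blood cells (SD, n = 3), and Krt18 44.8 ± 7.32 and 32.1 ± 0.638 CPM. Both lay lower without overlap between groups, as did 9.19% of all tested genes. Krt14, with means of 14.4 and 12.6 CPM, also lay lower without overlap. Msln went the other way, at 186.9 ± 1.96 and 190.2 ± 3.50 CPM. Fibroblast and mural markers summed to 443 to 493 against 452 to 470.1 CPM. In bulk RNA, a change in the share of a cell type and a change in RNA per cell cannot be told apart, and the part of the added cells in chaperone values was not tested. Control replicate 2 stood apart: the chi-square per gene against control replicates 1 and 3 was 22.5 and 21.4, compared with 1.8 between the other controls and 1.58 to 1.89 among the treated libraries. Calls of the members are given with and without it.

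The regulatory sequences set the stage, because both stress programmes act through short promoter elements. RefSeq promoter windows (GRCm38.p6, 250 bases before to 50 bases after a start site) matched 35 of the 43 genes, in 41 windows; Hsf1, Hspa8, Hsp90aa1, Hsp90ab1, Hspa9, Atf6, Manf and Hyou1 had no entry. A pair of heat shock units, GAANNTTC or TTCNNGAA (each its own reverse complement), was present for 10 of 15 cytosolic genes, both mitochondrial genes with a window and 0 of 18 ER genes, against 17.0% of 27025 symbols with a window. A run of 3 alternating units, on either strand, was present for Hsph1, Chordc1, Hspd1 and Hspe1, against 0.662% of symbols. The ER stress element ERSE, CCAAT and CCACG held apart by 9 bases on either strand, was present for 8 of 18 ER genes (Hspa5, Hsp90b1, Dnajc3, Pdia6, Calr, Canx, Creld2 and Syvn1) and 0 cytosolic genes, against 0.137% of symbols. Its compact form ERSE-II, in which ATTGG and CCACG are 1 base apart, was present for Herpud1 and Dnajb11, against 0.0444% of symbols. A match describes letters in a window and is not evidence that a factor bound there.

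The windows of 5 genes are printed 5′ to 3′ on the gene's strand, with the matched letters in capitals. Hspa5 and Pdia6 show the ER element, 65 and 98 bases before the start. Hspe1 shows overlapping runs of 3 heat shock units, which together reach from 89 to 72 bases before the start. They lie in the stretch of 285 bases that its window shares with a window of its head-to-head neighbour Hspd1. Hspb8 and Bag3, whose libraries lay lower with red blood cells, show 1 pair of heat shock units each, after the start.
Hspa5 (chr2:34771840-34772139, + strand): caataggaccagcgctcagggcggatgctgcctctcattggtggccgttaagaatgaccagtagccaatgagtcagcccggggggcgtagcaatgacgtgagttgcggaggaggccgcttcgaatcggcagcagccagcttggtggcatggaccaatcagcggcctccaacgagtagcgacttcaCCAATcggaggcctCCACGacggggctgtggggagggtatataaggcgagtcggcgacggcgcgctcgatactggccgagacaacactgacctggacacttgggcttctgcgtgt
Pdia6 (chr12:17266339-17266638, + strand): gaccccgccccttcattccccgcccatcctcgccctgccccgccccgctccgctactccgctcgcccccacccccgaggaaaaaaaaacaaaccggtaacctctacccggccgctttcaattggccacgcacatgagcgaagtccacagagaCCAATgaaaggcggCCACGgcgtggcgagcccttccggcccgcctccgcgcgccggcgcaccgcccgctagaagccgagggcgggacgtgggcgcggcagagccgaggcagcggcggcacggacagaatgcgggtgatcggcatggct
Hspe1 (chr1:55087898-55088197, + strand): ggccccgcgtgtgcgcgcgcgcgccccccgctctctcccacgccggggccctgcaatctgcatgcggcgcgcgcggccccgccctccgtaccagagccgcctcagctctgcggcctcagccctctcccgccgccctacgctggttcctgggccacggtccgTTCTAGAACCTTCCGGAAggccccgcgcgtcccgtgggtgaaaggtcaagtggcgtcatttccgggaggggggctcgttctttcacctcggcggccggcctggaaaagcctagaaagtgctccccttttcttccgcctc
Hspb8 (chr5:116422815-116423114, - strand): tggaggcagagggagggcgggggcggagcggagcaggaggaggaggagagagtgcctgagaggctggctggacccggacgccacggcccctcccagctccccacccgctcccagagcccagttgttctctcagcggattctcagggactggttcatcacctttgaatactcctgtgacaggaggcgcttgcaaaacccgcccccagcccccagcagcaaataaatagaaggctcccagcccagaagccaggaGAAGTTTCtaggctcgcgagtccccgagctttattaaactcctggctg
Bag3 (chr7:128523333-128523632, + strand): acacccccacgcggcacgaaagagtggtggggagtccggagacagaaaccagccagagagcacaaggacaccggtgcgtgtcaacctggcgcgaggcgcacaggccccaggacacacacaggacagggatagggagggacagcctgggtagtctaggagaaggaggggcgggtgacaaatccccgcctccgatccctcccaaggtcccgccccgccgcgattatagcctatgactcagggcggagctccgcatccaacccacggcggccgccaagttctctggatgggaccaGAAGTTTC

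None of the chaperone genes passed the test for a difference with red blood cells when all 6 libraries were used. Of the 43 genes 41 had enough counts to be tested, and 0 passed a Benjamini-Hochberg adjusted p of 0.05 in edgeR's quasi-likelihood test, where 1.46% of all 11208 tested genes passed, 1.16% higher and 0.303% lower. The smallest adjusted p among the 41 was 0.336. DESeq2 and limma voom also called 0, against 2.11% and 1.44% of all tested genes. Only Hspb8 and Xbp1, 2 of the 41 (4.88%), had an unadjusted p under 0.05 in edgeR, both lower, against 9.99% of all tested genes and 4.58% in that direction. Limma voom with library quality weights, described with control replicate 2 further on, called 3. The other settings for the 6 libraries gave 0 calls, against 1.48% of all tested genes with RLE scaling or library size alone, 1.28% with no filter, 1.36% with a filter at 1 CPM, 1.4% without erythroid genes, 3.05% with a gene length offset and 1.12% with a replicate block. On FPKM, limma called 0 members against 1.31% and 1.32% of genes at pseudocounts of 1 and 0.1, and 0.985% with no filter.

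The intervals also give a range for each change, from the same spread between libraries as the p-values. That spread may be technical, so the intervals need not cover differences between separate cultures. Log2 fold changes of the 41 genes lay between -0.18 (Hspe1) and 0.18 (Sdf2l1), with a median of -0.032 against -0.0027 over all tested genes and an SD of 0.083 against 0.34. Over all tested genes the log2 fold changes ran from -1.38 to 7.77. The median SE was 0.0834 over all tested genes and 0.0624 for the members, so the 2 sets differ in precision. The 95% interval of every one of the 41 lay inside a 1.5-fold change in either direction, as it did for 87.3% of all tested genes. The lowest bounds were those of Hspa1b (-0.47) and Hspe1 (-0.40), and the highest those of Ern1 (0.50) and Sdf2l1 (0.39). These intervals are those of single genes. The 3 treated libraries lay wholly above or wholly below the 3 controls for 7 genes, or 17.1%, against 19.6% of all tested genes. Of these Hspb8, Dnajb1, Bag3, Xbp1 and Edem1 lay lower, against 9.19% of all tested genes, and Pdia4 and Hyou1 higher, against 10.4%.

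**Figure D1:**
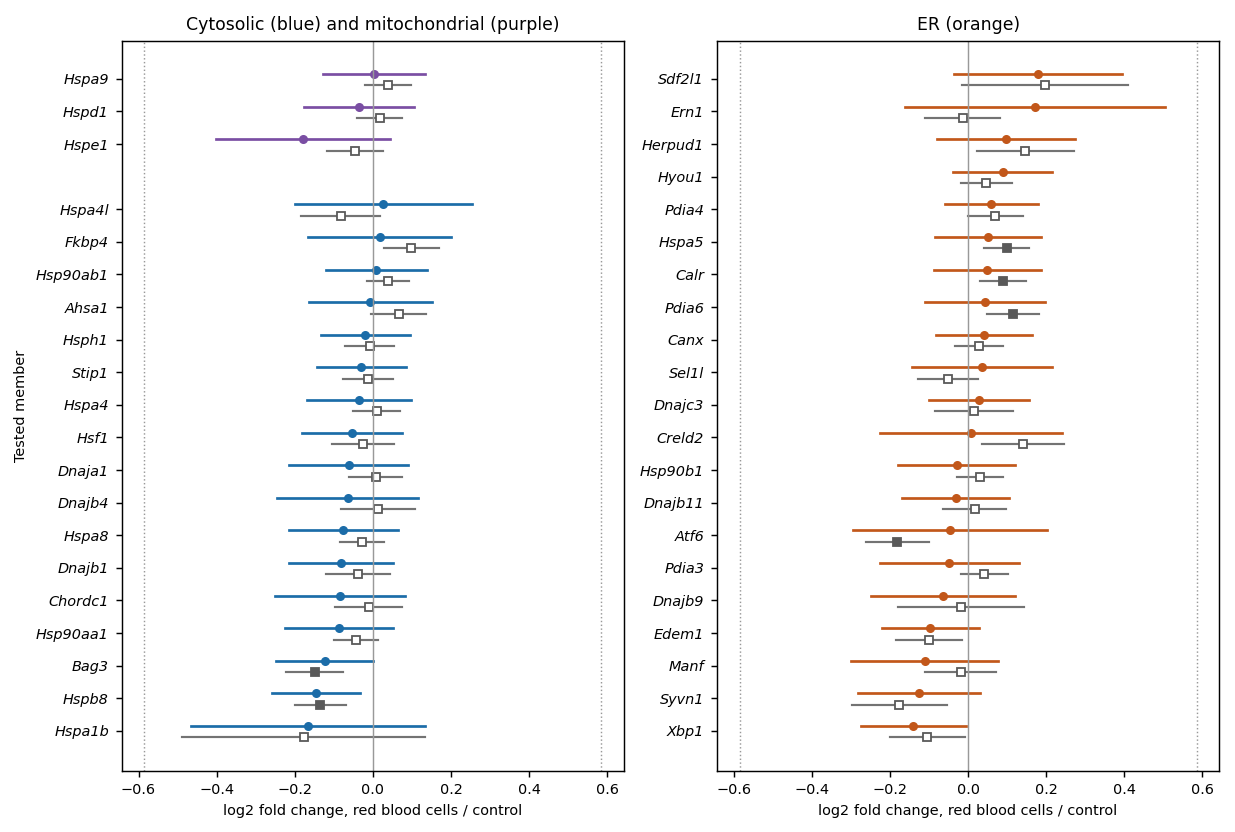
Log2 fold change of each tested member with its 95% interval. Coloured circles are the edgeR fit on 6 libraries, grey squares the fit without control replicate 2, filled where the adjusted p was under 0.05; dotted lines mark 1.5-fold. All coloured intervals lie inside the dotted lines, and the 6 filled squares are Hspb8, Bag3, Atf6, Calr, Hspa5 and Pdia6.

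Per length, the network spanned a wide range. Levels between genes are given in FPKM (fragments scaled by gene length and library total, as deposited), as the control mean with its SD over 3 libraries. Hsp90ab1, the constitutive cytosolic HSP90, was the highest at 1706 ± 62.6 FPKM, rank 9 among all listed genes, followed by the constitutive HSP70 gene Hspa8 at 1302 ± 74.8 FPKM and the inducible HSP90 gene Hsp90aa1 at 689 ± 37.7 FPKM. These 3 did not overlap with each other over the control libraries. The ER lectin chaperone Calr had 553 ± 31.8 FPKM and the mitochondrial chaperonin Hspd1 496 ± 31.6 FPKM, which overlapped. The ER members Hsp90b1, Hspa5 and Pdia3 and the mitochondrial Hspa9 and Hspe1 came next, from 394 down to 260.3 FPKM, and each overlapped with its neighbour in that order.

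At the other end stood the sensors and the inducible HSP70 genes. Ern1 had 8.04 ± 1.88 FPKM, Atf6 13.7 ± 2.30 FPKM, the ER J proteins Dnajc3 and Dnajb9 11.0 ± 0.328 FPKM and 10.2 ± 0.742 FPKM, and the ubiquitin ligase Syvn1 9.89 ± 0.631 FPKM. Hspa1b, an HSP70 gene that heat shock induces from a low base, had 1.80 ± 0.0282 FPKM. Within single control libraries Hspa8 was 681 to 779 times as high as Hspa1b per length, and in the treated libraries 679 to 894 times. Hspa1a, a near-identical copy of Hspa1b, had 1 count in each control library and 0, 1 and 0 counts in treated replicates 1 to 3, so the split of reads between the copies is uncertain. The small heat shock gene Hspb1 had 1 count over the 3 controls and 0 over the 3 treated libraries. Both lay at or under a floor of 3 counts per group, were not tested, and no fold is given.

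**Figure D2:**
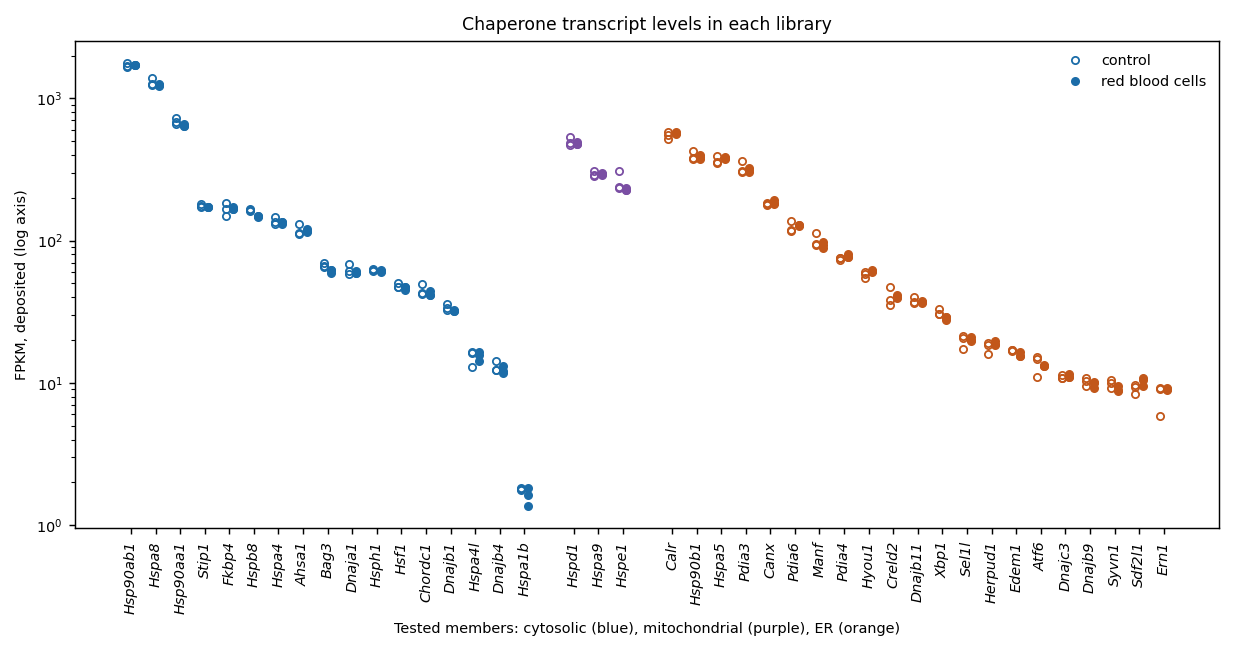
Deposited FPKM (log axis) of the 41 tested members in each of 6 libraries, open circles for controls and filled circles for red blood cells, ordered by level within the cytosolic, mitochondrial and ER groups. Levels run from Hsp90ab1 at 1706 FPKM to Hspa1b at 1.80 FPKM in the controls, and the open and filled circles of a gene lie close together.

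The signs of the cytosolic members rested in part on control replicate 2. Of 17 tested, 14 had negative log2 fold changes and 3 positive, with a median of -0.062, where 51% of all tested genes were negative. Without that library 11 were negative and 6 positive, with a median of -0.013. With all 6 libraries none was called, and 1 had an unadjusted p under 0.05 in edgeR, against 9.99% of all tested genes. Without control replicate 2, Hspb8 and Bag3 were called lower, against 3.77% of all tested genes. In that fit 3 had an unadjusted p under 0.05, against 19.4% of all tested genes.

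Hsf1, the master regulator of the heat shock response, was not called. Its CPM was 116, 122 and 114 in the controls, in the order of their numbers, and 114, 109 and 116 with red blood cells, so the groups overlapped. The log2 fold change was -0.054 ± 0.057 SE (adjusted p = 0.75).

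Hspb8 had the smallest p of all members. It encodes a small heat shock protein that works with the cochaperone BAG3 in handing damaged proteins to autophagy. Its CPM was 293, 305 and 300.2 in the controls against 270.5, 272 and 268 in the treated libraries, with every treated library below every control. The log2 fold change was -0.15 ± 0.050 SE, with an unadjusted p of 0.0166 and an adjusted p of 0.336.

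Its partner gene Bag3 lay lower as well. Bag3 had 173, 168 and 181 CPM in the controls against 162, 155 and 161 CPM in the treated libraries, again without overlap. Its log2 fold change was -0.12 ± 0.055 SE (unadjusted p = 0.0509, adjusted p = 0.498). Both genes are called lower once control replicate 2 is left out, as described further on.

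The HSP70 and HSP110 genes, which hold unfolded chains and exchange nucleotide on HSP70, overlapped between groups. Hspa8 had 2670.1, 2921 and 2630.5 CPM in the controls against 2644, 2556 and 2595 CPM with red blood cells. Control replicate 2 was its highest library, processed pseudogene copies of Hspa8 may share its reads, and its log2 fold change was -0.075 ± 0.062 SE (-0.028 without that library). Hspa1b had 5.04, 5.01 and 5.16 CPM in the controls against 4.61, 3.82 and 5.11 CPM with red blood cells, from 70 to 92 counts a library, and its interval was wide, from -0.47 to 0.13. The HSP110 genes Hspa4, Hspa4l and Hsph1 had log2 fold changes of -0.036, 0.026 and -0.019.

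Of the HSP90 pair, which matures kinases and receptors, neither gene was called. Hsp90ab1 had 4146, 4451 and 4230.5 CPM in the controls against 4284, 4327 and 4284 CPM in the treated libraries, with its treated libraries inside the control range. Hsp90aa1 had 1941, 2081 and 1869 CPM in the controls against 1812, 1895 and 1837 CPM with red blood cells, where treated replicate 2 lay above control replicate 3. Their log2 fold changes were 0.0090 ± 0.057 SE and -0.086 ± 0.061 SE, and 0.038 and -0.044 without control replicate 2.

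The J proteins, which deliver clients to HSP70, and the cochaperones of HSP90 had log2 fold changes from -0.084 (Chordc1) to 0.017 (Fkbp4). Dnajb1, a classic HSF1 target, had 105, 116 and 108 CPM in the controls against 103, 104 and 105 CPM with red blood cells. The groups of Dnajb1 did not overlap, though treated replicate 3 at 105.1 CPM came close to control replicate 1 at 105.4 CPM, and its log2 fold change was -0.081 ± 0.059 SE (adjusted p = 0.661), or -0.038 without control replicate 2. Dnaja1 and Dnajb4 had -0.062 and -0.065 on the same scale. Stip1, which bridges HSP70 and HSP90, had -0.030, Ahsa1, the activator of the HSP90 ATPase, -0.0067, the HSP90 binder Chordc1 -0.084 (-0.010 without control replicate 2) and the immunophilin Fkbp4 0.017, and in all 4 the groups overlapped.

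**Figure D3:**
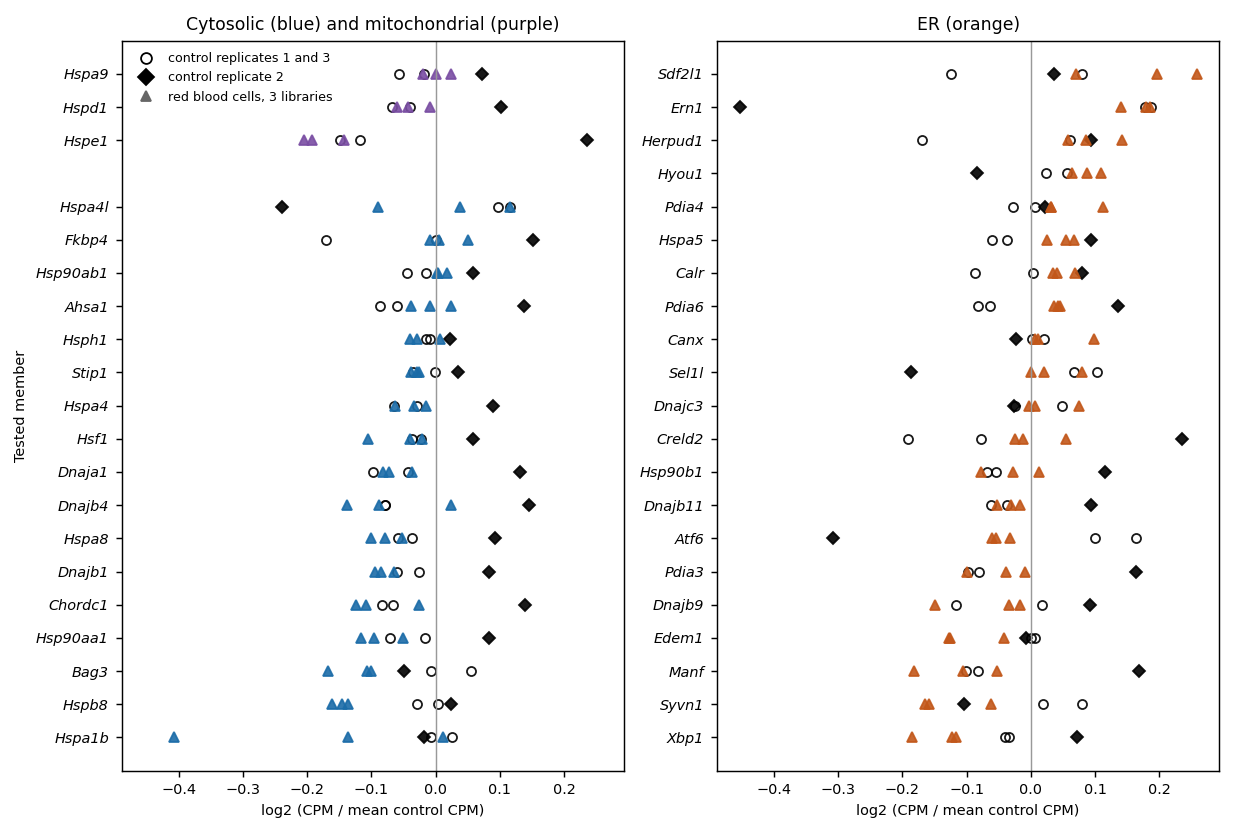
CPM of each library relative to the mean of the 3 controls (log2), 1 row per tested member, ordered by log2 fold change in each compartment. Open circles are control replicates 1 and 3, black diamonds control replicate 2 and coloured triangles the treated libraries; the diamond lies outside the other 2 controls for 40 of 41 members, and all triangles lie left of the controls for Hspb8, Bag3, Dnajb1, Xbp1 and Edem1.

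The 3 mitochondrial chaperones were not called. Hspa9, the HSP70 that pulls proteins into the matrix, had 863, 945 and 887 CPM in the controls against 899, 914 and 886 CPM with red blood cells. Hspd1 and Hspe1, which form the barrel and the lid of the matrix chaperonin, had log2 fold changes of -0.036 ± 0.062 SE and -0.18 ± 0.098 SE. Hspe1 had 180.3, 235 and 184 CPM in the controls, where replicate 2 stood high, and 175, 181 and 173 CPM in the treated libraries. Without control replicate 2 its log2 fold change was -0.046 (95% interval from -0.12 to 0.025). Reads of Hspd1 and Hspe1 can be shared with processed pseudogene copies, so their counts are less certain.

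The ER members were spread around 0. Of 21 tested, 12 had positive and 9 negative log2 fold changes, with a median of 0.028 (13 and 8, with the same median, without control replicate 2). With all 6 libraries none was called, and 1 had an unadjusted p under 0.05 in edgeR, against 9.99% of all tested genes. Without control replicate 2, 4 were called, against 7.96% of all tested genes. In that fit 9 had an unadjusted p under 0.05, against 19.4% of all tested genes.

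Xbp1 was the ER member with the smallest p over 6 libraries. It encodes the transcription factor that IRE1 activates by splicing its mRNA, and a count per gene does not separate the spliced form. It had 67.9, 73.4 and 68.2 CPM in the controls against 61.4, 64.4 and 64.1 CPM in the treated libraries, all 3 of them below all controls. The log2 fold change was -0.14 ± 0.059 SE (unadjusted p = 0.0417, adjusted p = 0.472), and without control replicate 2 it was -0.10 (adjusted p = 0.199).

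Atf6 and Ern1 turned on a single control library. Atf6 had 121, 87.4 and 116 CPM in control replicates 1 to 3 and 104, 106 and 104 CPM in the treated libraries, which thus fell between control replicate 2 and the other controls. Its log2 fold change was -0.047 ± 0.11 SE (adjusted p = 0.886) with all libraries and -0.18 ± 0.040 SE (adjusted p = 0.000922) without that library. Ern1 had 63.6, 40.8 and 63.2 CPM in the controls against 61.6, 63.3 and 63.5 CPM with red blood cells, with control replicate 2 far below 5 libraries that lay between 61.6 and 63.6 CPM. The Ern1 log2 fold change, 0.17 ± 0.15 SE with all libraries, was -0.013 ± 0.048 SE without that library.

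Of the abundant ER chaperones Hspa5 and Hsp90b1 overlapped between groups. Hspa5 (BiP), the ER HSP70 that also holds the sensors inactive, had 895, 995 and 909.7 CPM in the controls against 949.8, 977 and 969.7 CPM in the treated libraries. Its treated libraries exceeded control replicates 1 and 3 and lay below control replicate 2, and its log2 fold change was 0.051 ± 0.060 SE (95% interval from -0.085 to 0.19). Hsp90b1, the ER HSP90, had 1037, 1178 and 1047 CPM in the controls against 1031, 1097 and 1066 CPM with red blood cells, a log2 fold change of -0.029 ± 0.066 SE. Hyou1, the ER member of the HSP110 family, had 279.8, 259.7 and 286 CPM in the controls against 288, 292 and 297 CPM with red blood cells, with each treated library above each control and a log2 fold change of 0.088 ± 0.056 SE (adjusted p = 0.636), or 0.047 without control replicate 2.

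The lectin chaperones and disulfide isomerases, which fold glycoproteins and join cysteines, were not called either. Calr had 1011, 1134 and 1077 CPM in the controls against 1100.3, 1105 and 1126 CPM in the treated libraries, so control replicate 2 was again the highest. Its log2 fold change was 0.049 ± 0.060 SE, and that of Canx 0.040 ± 0.054 SE. Pdia4 did not overlap between groups, with 199, 201 and 195 CPM in the controls against 203, 203 and 214 CPM with red blood cells (log2 fold change 0.060 ± 0.052 SE, adjusted p = 0.703). Pdia6 had 252, 293 and 255 CPM in the controls against 274, 273 and 275 CPM with red blood cells, its treated libraries lying between control replicate 2 and the other controls (log2 fold change 0.042 ± 0.068 SE). Pdia3 also overlapped, with a log2 fold change of -0.048.

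Several smaller ER genes are known as targets of the unfolded protein response. Sdf2l1, a partner of BiP that ER stress induces, had 10.7, 10.3 and 9.25 CPM in the controls against 12.1, 10.6 and 11.5 CPM with red blood cells, and its log2 fold change of 0.18 ± 0.095 SE was the highest of the members (adjusted p = 0.577). The ER stress targets Manf and Creld2 had -0.11 and 0.0068 (-0.019 and 0.14 without control replicate 2), and the J proteins Dnajb9, Dnajb11 and Dnajc3 had -0.065, -0.032 and 0.028, all with overlapping groups.

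The genes of ER-associated degradation, which extracts misfolded proteins for the proteasome, had log2 fold changes in both directions. Herpud1, a scaffold of the complex, had 37.8, 38.7 and 32.2 CPM in the controls against 37.7, 40.0 and 38.5 CPM in the treated libraries, with treated replicates 1 and 3 below control replicate 2. Edem1, which trims mannose from clients, had 100.1, 99.6 and 101 CPM against 91.7, 97.2 and 91.7 CPM, without overlap and with a log2 fold change of -0.096 ± 0.054 SE (adjusted p = 0.595). Syvn1, the ubiquitin ligase, had 38.4, 33.8 and 36.8 CPM in the controls against 34.8, 32.6 and 32.4 CPM with red blood cells (log2 fold change -0.13 ± 0.069 SE, adjusted p = 0.589), its groups overlapping through control replicate 2, and its partner Sel1l had a log2 fold change of 0.036. Grouped by promoter after the values were seen, the 10 ER members with ERSE or ERSE-II had 7 positive values and a median of 0.034 (9 and 0.060 without control replicate 2), and the 8 others with a window 4 and -0.0061 (3 and -0.016). The 8 tested cytosolic members with a pair of heat shock units had 1 positive value and a median of -0.0745 (3 and -0.0094), the 5 others with a window 1 and -0.030 (2 and -0.013), and the 2 mitochondrial genes with it 0 and -0.11 (1 and -0.014). No difference between these groups was tested.

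As a pool, chaperone transcripts took overlapping shares of the libraries in both groups. The 43 genes summed to 2.02%, 2.19% and 2.04% of all counts in the controls, compared with 2.04%, 2.07% and 2.05% once red blood cells were added. The cytosolic genes held 12120.1 ± 545 CPM (SD, n = 3) without and 11786 ± 32.7 CPM with red blood cells. The ER genes held 6338 ± 262 and 6395 ± 103 CPM. The groups overlapped in all of these sums, and control replicate 2 was the highest library in each.

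Ratios of 2 genes within a library do not depend on how libraries are scaled. Of 11 FPKM ratios between related members, chosen with results known and not tested, 5 did not overlap between groups. For single genes 19.6% of all tested did not overlap, and the share over other gene pairs was not computed, so the count has no reference. The ratio of Hspa8, the main cytosolic HSP70, to Hspa5, the ER one, was 3.59, 3.53 and 3.48 in the controls and 3.35, 3.15 and 3.22 in the treated libraries, so control replicate 2 lay here with the other controls. The ratio of Hsp90ab1 to Hsp90aa1 was 2.43, 2.43 and 2.57 in the controls and 2.69, 2.6 and 2.65 with red blood cells. Hspd1 over Hspe1, Hspa5 over Dnajb9 and Hspa5 over Hspa9 were the other ratios without overlap, each higher in the treated libraries. The ratio of Calr to Canx, 3.05 ± 0.205 and 3.07 ± 0.128 (SD, n = 3), overlapped.

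Other genes of the same pathways were likewise not called. Of 100 listed genes outside the 43 that belong to cytosolic, mitochondrial or ER folding and stress, 97 were tested and 0 were called in either direction. An unadjusted p under 0.05 in edgeR was found for 3 of them, or 3.09%, against 9.99% of all tested genes. In the cytosolic list of 37 tested genes, 29 had negative values (78.4%), against 51% of all tested genes, but without control replicate 2 only 18 of the 37 did, and over the 97 genes the negative values went from 64 to 49. The 8 tested subunits of TRiC, the ring chaperonin that folds actin and tubulin, ran from -0.093 to -0.017 with 6 libraries and from -0.020 to 0.065 without control replicate 2, where 6 of the 8 were positive. The first 3 by p there were the transcription factor Hsf2 (log2 fold change -0.16, adjusted p = 0.394), the prefoldin subunit Pfdn4 (-0.20, adjusted p = 0.507) and Hikeshi, which carries HSP70 into the nucleus (-0.18, adjusted p = 0.601). In the ER list of 47 tested genes they were Ufm1, a ubiquitin-like modifier (-0.21, adjusted p = 0.326), the pseudokinase Trib3 (0.23, adjusted p = 0.399) and Sec61a1 of the translocation channel (0.14, adjusted p = 0.508). The mitochondrial list of 13 tested genes gave the proteases Spg7 (0.13, adjusted p = 0.616) and Yme1l1 (-0.080, adjusted p = 0.646) and the import factor Dnajc19 (-0.12, adjusted p = 0.73). Of the PERK branch, named here after the values were seen, the factor Atf4 had 336 ± 30.0 CPM in the controls and 332 ± 7.10 CPM with red blood cells (SD, n = 3). Its target Ddit3 had 4.17, 6.15 and 3.98 CPM in the controls against 5.39, 6.55 and 5.16 CPM with red blood cells (log2 fold change 0.26, adjusted p = 0.656). In the same branch Eif2ak3, the gene of PERK, had a log2 fold change of 0.019 (adjusted p = 0.929) and Ppp1r15a -0.068 (adjusted p = 0.751).

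The 0 calls depended on control replicate 2. Without it 6 of 41 members, 14.6%, were called, against 7.96% of 11297 tested genes, 4.19% higher and 3.77% lower. At an unadjusted p under 0.05 there were then 12 members, against 19.4% of all tested genes. The ER chaperones Hspa5, Pdia6 and Calr were then called higher, and Hspb8, Bag3 and the sensor Atf6 lower. The sizes stayed small: Hspa5 was 1.07-fold (log2 fold change 0.098 ± 0.029 SE, adjusted p = 0.0209), Pdia6 1.08-fold (0.11 ± 0.033, adjusted p = 0.0169) and Calr 1.06-fold (0.0895 ± 0.030, adjusted p = 0.0497). Hspb8 had -0.14 ± 0.033 (adjusted p = 0.00301), Bag3 -0.15 ± 0.036 (adjusted p = 0.00318) and Atf6 the value given above. These calls rest on 2 controls against 3 treated libraries, with a chi-square per gene of 1.8 between the 2 controls. The median SE of the members was 0.0354 in this fit and 0.0624 with 6 libraries. Over all tested genes it was 0.0584 and 0.0834, so the shares called among members and among all genes differ in precision. Limma voom with library quality weights on all 6 libraries called Hspb8, Bag3 and Atf6 lower and 0 higher, against 5.81% of all tested genes, 2.58% lower and 3.23% higher. Leaving out any 1 of the other 5 libraries gave 0 calls, against 1.07% and 1.04% of all tested genes without control replicates 1 and 3 and 0.637%, 0.549% and 0.7% without treated replicates 1, 2 and 3. Among the other pathway genes 4 were called without control replicate 2, all higher: Trib3 (0.33), P4hb, a disulfide isomerase (0.11), Spg7 (0.20) and Ddit3, the stress factor CHOP (0.49). They were 4.12% of the 97 tested.

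How control replicate 2 differed from its group moved with gene length. For 40 of the 41 members it lay outside the range of the other 2 controls, above for 29 and below for 11, against 86.3% of all tested genes outside. Of the 11208 tested genes 4884 lay above and 4784 below. Hspe1, with a gene model of 768 bases, was 0.37 higher in log2 CPM than the mean of control replicates 1 and 3, and Creld2, of 1364 bases, also 0.37 higher. Ern1 (6948 bases) was 0.63 lower, Atf6 (7926 bases) 0.44 lower, Hspa4l (3936 bases) 0.34 lower and Sel1l (6300 bases) 0.27 lower. Spearman's rho between gene length and this difference was -0.583 over the 41 members and -0.669 over all tested genes, where the points share these 3 libraries. Between control replicates 1 and 3 it was 0.279 and 0.11. Dnajb4, of 6181 bases, went the other way at 0.22 higher. With an offset for each library's trend with gene length, 0 members were called, against 3.05% of all tested genes.

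**Figure D4:**
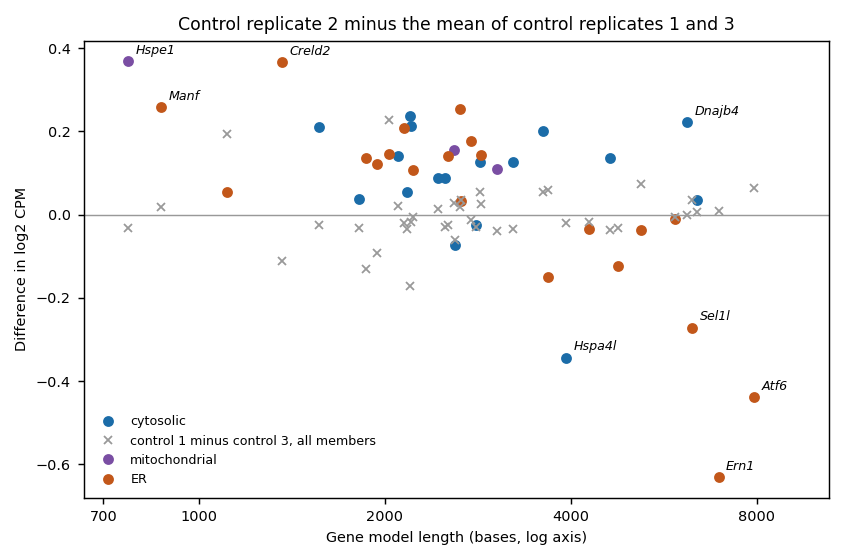
Difference in log2 CPM between control replicate 2 and the mean of control replicates 1 and 3 against gene model length (log axis), 1 coloured point per tested member. Grey crosses are control replicate 1 minus control replicate 3; short genes such as Hspe1 lie up to 0.37 above 0 and Ern1 lies 0.63 below it, while most crosses stay near 0.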

How the data were processed

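Poly(A) RNA libraries were made with a stranded kit after TRIzol extraction, per the labels' protocols. The submitters' processing notes name the build GRCm39; the aligner, the counter, its use of strand and the gene models were not named (not given in the sources used here). The authors deposited raw counts per gene symbol and FPKM of the same 15528 symbols; per the file values, FPKM equal the counts scaled by length and by each library's sum, so the tables are no independent check. Gene model length was computed from their ratio. Counts were tested with edgeR 4.0.16 (R 4.3.3): filterByExpr (minimum count 10, total 15) kept 11208 genes with 99.958% of counts, TMM scaling, glmQLFit and glmQLFTest with group as the only term, two-sided p-values adjusted over all tested genes, called under 0.05. CPM are scaled to all listed counts. The SE of an edgeR log2 fold change was taken from its size and its quasi-likelihood F, and the 95% intervals use that SE and the model's degrees of freedom. FPKM were tested with limma 3.58.1 on log2(FPKM + 1), for means of at least 1. The test pipeline was tested on simulated counts. Alternatives were RLE or no scaling, DESeq2 1.42.0, limma voom without and with library weights, other low-count filters, erythroid genes left out, a gene length offset, a replicate block and each library left out. The members and lists were chosen with earlier results of these data known. Every member may be named; values per library are given for the regulators, for those first by p and for those of the highest level, and of the other pathway genes the first 3 by p in each list. Promoter windows are RefSeq's of GRCm38.p6, another build than the counts, and were used for sequence only.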

Additional observations from a re-analysis of the deposited data

How the results depend on the processing

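The 41 tested members were refitted under 19 alternatives, which gave 779 values; 37 changed sign, in 18 members, and 23 members kept theirs throughout. No member was called by edgeR with the 6 libraries under any scaling, filter, length offset or replicate block, nor by DESeq2, voom without weights or FPKM. Voom with library quality weights called 3 lower and 0 higher, 2 of them cytosolic and 1 of the ER, and 2 pathway genes. With a library left out, calls ranged from 0 to 3 higher, 0 to 3 lower, 0 to 2 cytosolic, 0 to 4 of the ER and 0 to 4 among pathway genes, all nonzero values coming without control replicate 2; the cause was not tested. Over all genes, higher calls ranged from 60 to 473 and lower calls from 2 to 426 with a library left out (130 and 34 with all). Weighted voom gave 362 and 289, the length offset 220 and 122, and DESeq2 67 lower. The replicate block gave 113 higher and 13 lower. Same-numbered libraries did not deviate together (correlations -0.014, 0.045 and 0.063), and not every library correlated best with its own number. The cytosolic median ranged from -0.093 to -0.013 with a library left out, and the ER median was -0.0054 with the length offset.

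Signs changed with weighted voom for Hspa4 (0.0009), Hspa4l (-0.067), Dnaja1 (0.0043), Ahsa1 (0.059), Hspd1 (0.013), Hsp90b1 (0.022), Dnajb11 (0.013), Pdia3 (0.033) and Sel1l (-0.032), and with the length offset for Stip1 (0.0085), Ahsa1 (0.054), Dnajc3 (-0.0054) and Sel1l (-0.013). With a library left out the log2 fold change ranged from -0.069 to 0.0096 for Hspa4, -0.082 to 0.089 for Hspa4l, -0.014 to 0.038 for Hsp90ab1, -0.11 to 0.0069 for Dnaja1, -0.11 to 0.014 for Dnajb4, -0.050 to 0.066 for Ahsa1, -0.063 to 0.098 for Fkbp4, -0.027 to 0.039 for Hspa9, -0.068 to 0.017 for Hspd1, -0.064 to 0.031 for Hsp90b1, -0.18 to 0.041 for Atf6, -0.013 to 0.27 for Ern1, -0.062 to 0.017 for Dnajb11, -0.094 to 0.041 for Pdia3, -0.082 to 0.14 for Creld2 and -0.051 to 0.088 for Sel1l. Hspa1a and Hspb1 were too low in counts to be tested.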
